A study of Bos taurus with 12 samples.

Results

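The genes described here encode mitochondrial ribosomal proteins, the nuclear-encoded proteins of the ribosome that works inside mitochondria. They were taken as every probe, controls left out, whose gene symbol was MRPL (large subunit) or MRPS (small subunit) followed by a number. The rule found 48 of 15208 probes, for 47 of the array's 14890 genes and unnamed probes, 30 of the large and 17 of the small subunit. The symbol stood in the gene name column for 25 probes, in the description for 20 and in the systematic name for 3. The tissue was the corpus luteum, the gland that forms in the ovary after ovulation and secretes progesterone, from Japanese Black cows with no stated treatment, and the arrays were 1-colour Agilent arrays. Of the 3 groups, NP15 was in the estrous cycle at day 15, and P15 and P18 were pregnant at days 15 and 18, with 4 animals in each and insemination counted as day 1. Whole tissue taken soon after exsanguination was used, and the ages of the cows are not given in the labels.

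Mitochondria keep a small genome of their own, which encodes core subunits of the respiratory chain and of ATP synthase, and the mitochondrial ribosome makes these proteins. Its proteins are made in the cytosol from nuclear genes and imported, where they join the ribosomal RNA of the mitochondrial genome. Some have bacterial counterparts and others are found only in mitochondria. In luteal cells the first step of steroid synthesis, the cleavage of cholesterol to pregnenolone, also takes place in mitochondria.

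Each gene is read by a 60-base probe, and the values below belong to that probe. The stretches shown are those of 6 called members and of the probes that disagree or have arrays far apart, as the array's design gives them, from the 5′ end. They are the whole probe for MRPL9, MRPS25 and the probe of MRPL17 found by description, and the first 30 bases for the others. No letters are in capitals, since no part of a probe is singled out.
MRPS28, probe A_73_113232: agctgtatctcccctccccctgtttttatg
MRPL47, probe A_73_118844: ttagtcaaaggactgtcgattgttttaaga
MRPL13, probe A_73_101825: tgaaagtttgtggggaaaggtcgggaaggg
MRPS25, probe ABR6449: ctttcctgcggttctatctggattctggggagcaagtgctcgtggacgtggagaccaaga
MRPL9, probe ABR7577: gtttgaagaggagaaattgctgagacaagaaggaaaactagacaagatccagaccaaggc
MRPS9, probe A_73_103018: tcctccgcgtgctgtcgattttccagacag
MRPL18, probe ABR9026: atccagggctgaattcttcgttcttggacg
MRPL20, probe A_73_106576: agttacaagcccaagagaaaaggacttgtc
MRPL35, probe ABR9768: gtataagacatgatgtaaattgtaccaact
MRPL35, probe A_73_103267: tctcagctctcccatcagaatcatctggaa
MRPL17, probe A_73_120661: aatgagaacatcggtctgtatgaggtagta
MRPL17, probe ABR6442: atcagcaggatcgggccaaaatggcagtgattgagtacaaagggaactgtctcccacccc
The GC content of the member probes was 35% to 60% with a median of 45%, against a median of 43.3% over all probes kept for testing. The probes were not aligned to a genome, so their place in the transcripts is not stated here.

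Values are log2 of the scanner's processed signal, less the 75th percentile of that array, and are called the scaled signal below, so that 0 is the 75th percentile of an array. A difference of 1 on this scale is a doubling. Of the 47 genes, 45 cleared the background in some group, on 3 or more of its 4 arrays, and were tested, 29 of the large and 16 of the small subunit. In 42 of them the probe was well above background on all 12 arrays. MRPL2 reached that level on 4 NP15 arrays and on no P15 or P18 array, MRPS33 on 4 NP15, 4 P15 and 1 P18 arrays, and MRPS7 on 3 NP15, 3 P15 and 0 P18 arrays. MRPL16 and MRPS12 were each well above background on 2 NP15 arrays and no others and were not tested. For 4 members the name needs care. The MRPL17 probe found by symbol carries the gene number of a separate locus, LOC506989, which the reference table lists as a gene apart from MRPL17. The description of the MRPS7 probe names MIF4GD. MRPS36 is now also called KGD4, a subunit of the 2-oxoglutarate dehydrogenase complex. MRPL35 has 2 tested probes, and the brighter one stands for the gene.

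All 11 luteal marker genes, among them STAR and CYP11A1 of steroid synthesis, were well above background on all 12 arrays. The 75th percentile signals ran from 2649 to 4183. NP15 and P15 lay on the same slide, in different slide rows, and were scanned together, while P18 was alone on another slide with a scan of its own. P18 and its slide cannot be told apart. Nor can group and slide row where NP15 is compared, or day and pregnancy in P18 vs NP15. NP15 replicate 4 stood apart: 14.4% of its kept probes lay over 1 log2 unit from the mean of its group's remaining arrays, and on the 11 remaining arrays that share was 3.41% to 7.14%. The arrays also carried a difference by position, with probes near the first and last of the 192 rows differing most between NP15 and P15. The first 24 and the last 24 rows are called outer rows below and the rest inner rows, and 32 of the tested members lie in inner and 13 in outer rows. All tests are limma with Benjamini-Hochberg adjustment over 12334 genes, 2-sided, and a gene is said to have risen or fallen where its adjusted p was under 0.05. Of these 12334, 5825 carry a symbol. The rest are mostly single unnamed probes, which are counted as genes below and may repeat a gene.

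On day 15 the mitochondrial ribosomal proteins differed little between pregnant and cycling cows. MRPS28 rose in P15 and no other member passed the test, 1 of 45 (2.22%), where 0.981% of all genes tested passed. Of the 45 members, 35 were lower in P15 by value, with a median log2 change of -0.14, beside 7389 of 12334 genes and a median of -0.06 over all genes. The large subunit had 24 of 29 members below 0 (median -0.14) and the small subunit 11 of 16 (median -0.12). By another count, all 4 P15 arrays lay below all 4 NP15 arrays for 8 members and above them for 1, or 17.8% and 2.22%, beside 4.95% and 1.54% of all genes (6.49% in either direction).

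MRPS28, a small-subunit protein that lies in row 1 at the edge of the array, had scaled signals of -0.19, -0.43, -0.36 and 0.33 on the NP15 arrays. On the P15 arrays they were 1.71, 1.63, 1.53 and 1.30. Every P15 value lay about 1 log2 unit or more above every NP15 value, and the spread within P15 was the smaller one. The means were -0.16 ± 0.35 (SD, n = 4) in NP15 and 1.54 ± 0.18 in P15, a 3.26-fold difference (log2 change 1.70, SE 0.18, limma adjusted p = 0.000873). In rows 1 and 2 the median change of 116 genes was 0.39, and MRPS28 stood at their 92.2 percentile. In row 1 alone, 14.5% of 62 probes were over 1 log2 unit higher in P15. When each probe was set against the deviation of its own and neighbouring rows on each array, the change of MRPS28 was 1.22 (limma adjusted p = 0.0089). The gene kept its call under each alternative that retained it, which leaves out the one limited to inner rows.

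MRPL36, a large-subunit protein with a bacterial counterpart, lies in row 192 at the other edge. Its scaled signals were 2.77, 2.96, 2.69 and 3.01 in NP15, and 2.28, 2.46, 2.32 and 2.29 in P15. All P15 arrays were below all NP15 arrays, but the change of -0.52 (SE 0.11) had a limma adjusted p of 0.0591. In rows 191 and 192 the median change of 131 genes was -0.68, so MRPL36 differed less than most of its neighbours there. Set against its own and neighbouring rows on each array, its change was 0.22, in the other direction. It passed the test when only probes well above background on all 12 arrays were tested (adjusted p = 0.0499) and with array weights (adjusted p = 0.0462).

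The position of the other members shows in the same way. The 8 members in the last 24 rows were all lower in P15 by value, with a median of -0.39, and all genes in those rows had a median of -0.25. The 5 in the first 24 rows had a median of 0.08, as did all genes there. In the inner rows, where 0.0647% of genes passed the test, no member of 32 did. An unadjusted p under 0.05 was found for 5 of the 32 and for 409 of all 9272 inner-row genes. Their median was -0.13, with 25 below 0, beside -0.05 over all inner-row genes. In the outer rows 1 of 13 members passed, MRPS28, and 3.76% of all genes did. Compared with the genes of their own and adjacent rows, 33 of 45 members were lower than that median, and the median difference from it over all 45 was -0.10.

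**Figure D1:**
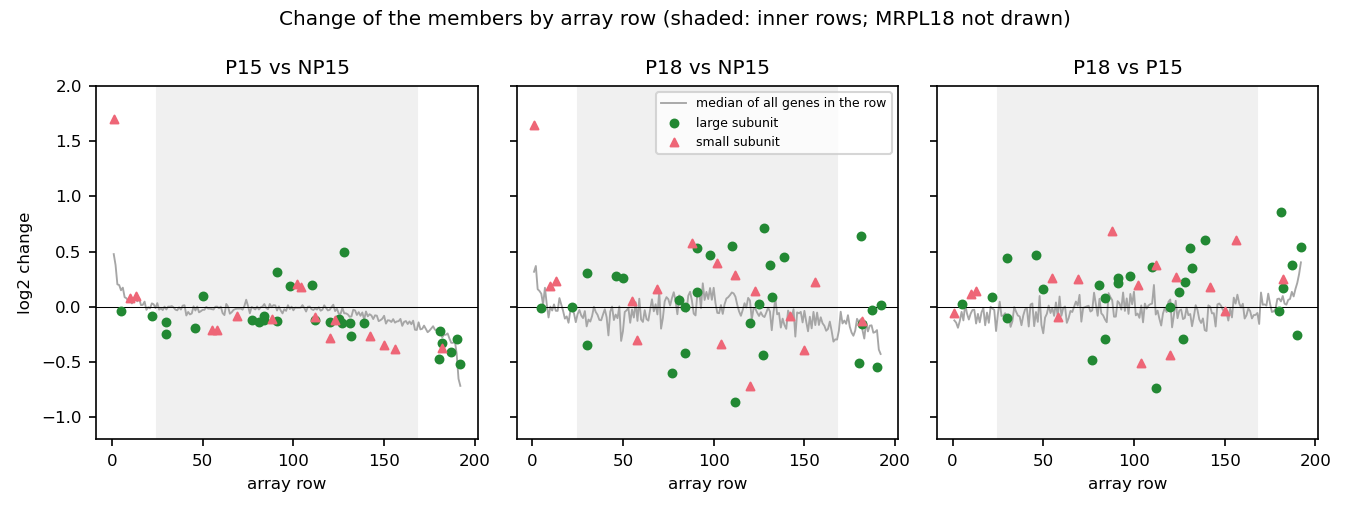
Log2 change of each mitochondrial ribosomal protein gene (y axis, points coloured by subunit) against its row on the array (x axis, rows 1 to 192) in the 3 comparisons, with a grey line for the median of all genes in each row, shading for inner rows and MRPL18 not drawn. In P15 vs NP15 the 8 members of the last 24 rows lie below 0, as the grey line does, and MRPS28 in row 1 stands above the line at 1.70.

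Among inner-row members the lowest p values below 0 belonged to MRPS25, MRPL54 and MRPS26, proteins found only in mitochondrial ribosomes. MRPS25 had a change of -0.38 (SE 0.10, limma adjusted p = 0.147), MRPL54 of -0.27 (adjusted p = 0.417) and MRPS26 of -0.27 (adjusted p = 0.457). All 4 P15 arrays were below all NP15 arrays for each of these 3 genes. Above 0, MRPL20 was at 0.50 (limma adjusted p = 0.808), MRPL17 at 0.32 (adjusted p = 0.862) and MRPL12, a protein of the ribosomal stalk, at 0.19 (adjusted p = 0.887). NP15 replicate 4 was low for both MRPL20 and MRPL17, as described below. None of these 6 passed the test in P15 vs NP15 in any alternative run.

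Between day 15 and day 18 of gestation more members rose than fell. In P18 vs P15, 12 of 45 members passed the test (26.7%), where 28.3% of all genes did, so the share called was near the background. Of the members 10 rose (22.2%) and 2 fell (4.44%), beside 12.8% and 15.5% of all genes. The large subunit had 7 rises and 2 falls among 29, and the small subunit 3 rises and 0 falls among 16. The median log2 change was 0.18, beside -0.03 over all genes, with 31 members above 0. The split of 10 rises and 2 falls stayed at 10 and 2 with quantile normalization. It was 11 and 1 with normexp background correction and 14 and 1 with median centring. All genes had 1579 rises and 1911 falls in the main run, and 1581 and 1965 with quantile normalization. They had 1917 and 1191 with normexp and 2437 and 1306 with median centring, so rises outnumbered falls there over all genes too. The member median was 0.075 with quantile normalization and 0.34 with median centring, which moves the median of all genes from -0.03 to 0.13. For 13 members all P18 arrays lay above all P15 arrays and for 2 below, 28.9% and 4.44%, beside 16.1% and 18.5% of all genes (34.7% in either direction). In the inner rows 8 of 32 rose and 2 fell, where 27.4% of all genes passed.

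Against day 15 of the cycle the calls went evenly in both directions. In P18 vs NP15, 12 of 45 members passed (26.7%), where 28.9% of all genes did, with 6 rises and 6 falls (13.3% each, beside 10.4% and 18.6% of all genes). The count was 7 without P18 replicate 1 and 7 without P18 replicate 3, runs for which the counts of all genes are not given here. The large subunit had 3 rises and 4 falls, and the small subunit 3 and 2. The median change was 0.06, beside -0.06 over all genes, and it was -0.06 with quantile normalization and 0.23 with median centring, which moves the median of all genes from -0.06 to 0.11. The split was 4 rises and 5 falls with quantile normalization and 7 and 5 with normexp. It was 9 and 5 when set against neighbouring rows, and 11 and 2 with median centring. All genes had 1277 rises and 2291 falls in the main run, 1420 and 2269 with quantile normalization and 1878 and 1446 with normexp. They had 1761 and 1904 when set against neighbouring rows and 2161 and 1481 with median centring, so the balance moved toward rises over all genes too. All P18 arrays lay above all NP15 arrays for 6 members and below for 7, 13.3% and 15.6%, beside 11.7% and 18.7% of all genes (30.4% in either direction). In the inner rows 4 of 32 rose and 6 fell, where 27.7% of all genes passed. Both comparisons use the same P18 arrays. In all, 17 members passed in at least 1 of them, 5 rose against both other groups, 2 fell against both, and none was called in opposite directions. The same counts over all genes are not given here, so these are not read as a trait of the members.

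**Figure D2:**
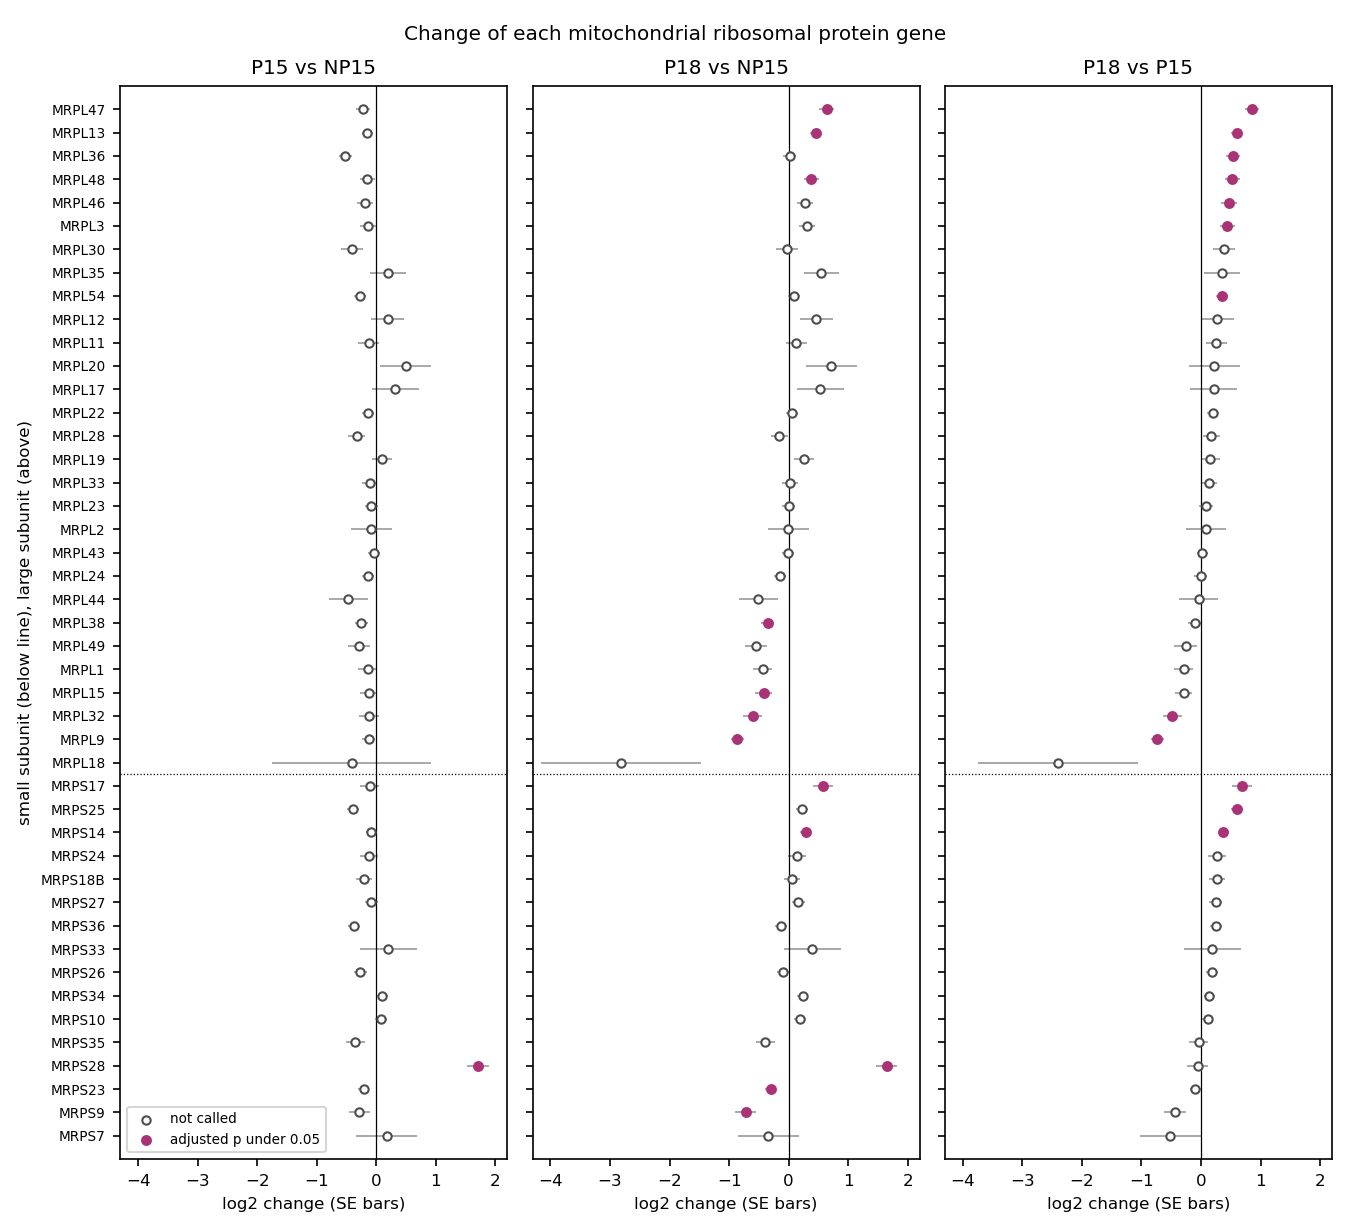
Log2 change with its SE (x axis) of each of the 45 tested mitochondrial ribosomal protein genes (y axis) in P15 vs NP15, P18 vs NP15 and P18 vs P15, small subunit below the dotted line; filled points passed the test at an adjusted p of 0.05. The 1 call of the first panel is MRPS28 at 1.70, calls lie on both sides of 0 in the second, and 10 of 12 lie to the right of 0 in the third.

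The large-subunit genes that rose were led by MRPL47, whose protein sits near the exit of the tunnel through which new proteins leave the ribosome. Its scaled signals were -0.32, -0.11, -0.47 and -0.08 in NP15, and -0.61, -0.41, -0.32 and -0.53 in P15. In P18 they were 0.18, 0.45, 0.46 and 0.49. All P18 arrays stood above the other 8, and NP15 and P15 overlapped. It rose 1.56-fold against NP15 (0.64, SE 0.12, limma adjusted p = 0.00281) and 1.82-fold against P15 (0.86, adjusted p = 0.00057). It lies in outer row 181, where the median change of neighbouring genes was -0.14 and 0.07 in these comparisons.

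MRPL13, a large-subunit protein with a bacterial counterpart, lies in inner row 139. Its scaled signals were 1.63, 1.84, 1.84 and 1.80 in NP15, 1.60, 1.58, 1.62 and 1.71 in P15, and 2.2, 2.17, 2.38 and 2.18 in P18. The P18 arrays were again above all others, and the gap between the groups was larger than the spread inside each. It rose 1.37-fold against NP15 (0.45, SE 0.09, limma adjusted p = 0.00397) and 1.52-fold against P15 (0.60, adjusted p = 0.000838). MRPL13 and MRPL47 passed in both P18 comparisons under every alternative that retained them.

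MRPL48, a mitochondria-specific protein of the large subunit, had scaled signals of -1.64, -1.41, -1.52 and -1.32 in NP15, -1.59, -1.62, -1.73 and -1.54 in P15, and -0.96, -0.82, -1.37 and -1.21 in P18. P18 was above P15 on all arrays, while the lowest P18 array lay below the highest NP15 array. It rose 1.44-fold against P15 (0.53, SE 0.13, limma adjusted p = 0.0116), which held under every alternative. Against NP15 it rose by 0.38 (adjusted p = 0.0486), and that call was lost on leaving out any 1 of 10 arrays, all but NP15 replicate 4 and P18 replicate 3 (0.29 to 0.42, adjusted p from 0.0565 to 0.122).

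MRPL36, near the edge as described above, had scaled signals of 2.90, 3.0, 2.93 and 2.66 in P18. These were above all P15 arrays and overlapped NP15. It rose against P15 (0.54, SE 0.11, limma adjusted p = 0.00456) and was at 0.02 against NP15 (adjusted p = 0.933). The genes of its rows had a median of 0.35 in P18 vs P15, and set against them the change was 0.15 (adjusted p = 0.343), so the call did not hold under that adjustment. In P18 vs NP15 the same adjustment gave 0.37 (limma adjusted p = 0.0306), a rise that passed. MRPL54, which also rose against P15 (0.36, SE 0.10, limma adjusted p = 0.0212), was at 0.09 against NP15 (adjusted p = 0.555). Leaving out replicate 2 or 3 of P15, or replicate 2 or 3 of P18, ended its call against P15 (0.32 to 0.35, adjusted p from 0.05005 to 0.0592).

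Outside the naming rule and chosen after their values were seen, MRPL46 and MRPL3 complete the large-subunit genes that rose against P15. MRPL46, a mitochondria-specific protein, rose by 0.47 (SE 0.13, limma adjusted p = 0.0223), with all P18 arrays above all P15 arrays. Leaving out replicate 2 or 4 of P15, or replicate 3 of P18, ended the call (0.40 to 0.47, adjusted p from 0.0504 to 0.0655). MRPL3, a protein near the site where peptide bonds are formed, rose by 0.44 (SE 0.13, adjusted p = 0.0273) with overlapping arrays. Its call was lost without P15 replicate 1, P15 replicate 3 or any of P18 replicates 2, 3 and 4 (0.38 to 0.44, adjusted p from 0.0531 to 0.0791).

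In the small subunit MRPS17, which has a bacterial counterpart, had scaled signals of 1.51, 1.30, 1.36 and 2.03 in NP15. In P15 they were 1.42, 1.32, 1.51 and 1.52, and in P18 they were 1.97, 2.35, 2.22 and 1.98. All P18 arrays were above all P15 arrays, while NP15 replicate 4 reached into the P18 range. It rose 1.61-fold against P15 (0.69, SE 0.16, limma adjusted p = 0.00891), which held under every alternative, and 1.49-fold against NP15 (0.58, adjusted p = 0.0202). The call against NP15 was lost without NP15 replicate 2, NP15 replicate 3, P18 replicate 2 or P18 replicate 3 (0.49 to 0.55, adjusted p from 0.0529 to 0.0547). Its probe lies in column 1, an edge column, where the median change of 145 probes was -0.15 in P18 vs NP15 and -0.07 in P18 vs P15.

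MRPS25, found only in mitochondrial ribosomes, had scaled signals of 0.16, -0.02, -0.08 and 0.27 in NP15. In P15 they were -0.32, -0.31, -0.28 and -0.29, and in P18 they were 0.38, 0.19, 0.40 and 0.26. The 4 P15 arrays lay close together below all 8 others, and NP15 and P18 overlapped. It rose 1.52-fold from P15 to P18 (0.61, SE 0.10, limma adjusted p = 0.00134), a call kept under every alternative. Against NP15 it was at 0.22 (adjusted p = 0.121), and 0.29 (adjusted p = 0.0374) without NP15 replicate 4.

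MRPS14, a small-subunit protein with a bacterial counterpart, had scaled signals of 1.25, 1.44, 1.21 and 1.37 in NP15, 1.22, 1.22, 1.26 and 1.21 in P15, and 1.60, 1.67, 1.63 and 1.52 in P18. All P18 arrays were above the other 8. It rose 1.30-fold against P15 (0.38, SE 0.09, limma adjusted p = 0.00783) and 1.22-fold against NP15 (0.29, adjusted p = 0.0293). The call against NP15 was lost without NP15 replicate 1, NP15 replicate 3 or any of P18 replicates 1, 2 and 3 (0.25 to 0.29, adjusted p from 0.0588 to 0.0741). MRPS28, the row 1 gene, had P18 values of 1.56, 1.44, 1.75 and 1.19, which overlapped P15 and lay above all NP15 arrays. It rose 3.13-fold against NP15 (1.65, SE 0.18, limma adjusted p = 0.000128) and was at -0.06 against P15 (adjusted p = 0.849), with its neighbouring genes at a median of 0.32 in P18 vs NP15.

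**Figure D3:**
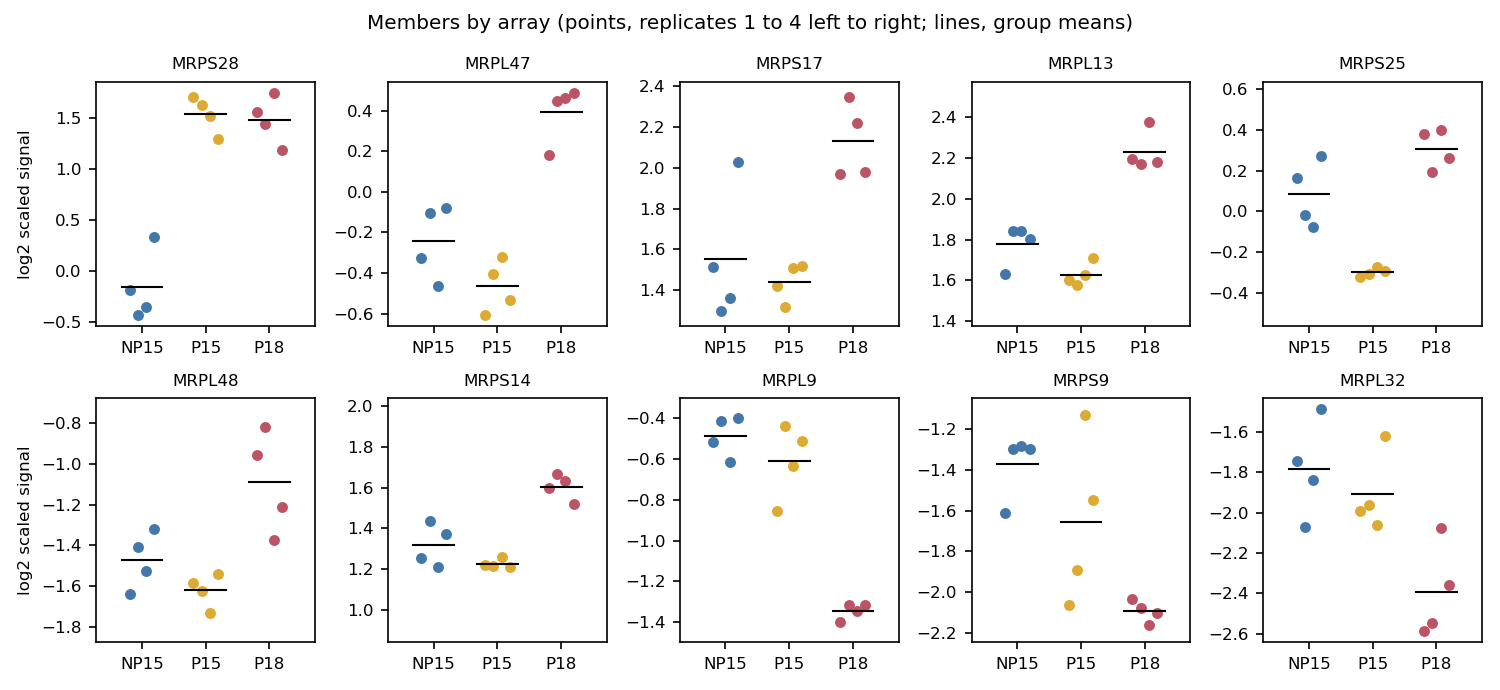
Scaled signal (y axis, log2, each panel with its own range) on each of the 4 arrays of NP15, P15 and P18 (x axis) for 10 mitochondrial ribosomal protein genes, with lines at the group means. P18 stands above both other groups for MRPL47 and MRPL13 and below both for MRPL9, and for MRPS25 the 4 P15 arrays lie below the others at -0.32 to -0.28.

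Among the genes that fell, MRPL9 of the large subunit had scaled signals of -0.52, -0.41, -0.61 and -0.40 in NP15. In P15 they were -0.86, -0.44, -0.63 and -0.51, and in P18 they were -1.40, -1.31, -1.35 and -1.32. The P18 arrays lay close together and below the other 8. It fell 1.82-fold against NP15 (-0.86, SE 0.11, limma adjusted p = 0.00026) and 1.66-fold against P15 (-0.73, adjusted p = 0.000657), under every alternative.

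MRPL32, a large-subunit protein that is trimmed by a mitochondrial protease before assembly, had scaled signals of -1.74, -2.07, -1.84 and -1.49 in NP15. In P15 they were -1.99, -1.96, -2.06 and -1.62, and in P18 they were -2.59, -2.55, -2.08 and -2.36. P18 lay below both groups, though its highest array was only just below the lowest of the others. It fell 1.52-fold against NP15 (-0.61, SE 0.16, limma adjusted p = 0.0157) and 1.40-fold against P15 (-0.48, adjusted p = 0.0432). The first call was lost with quantile normalization (-0.43, adjusted p = 0.081) and with median centring (-0.43, adjusted p = 0.0808). The second was lost on leaving out NP15 replicate 1 or 3, any P15 array, or P18 replicate 1, 2 or 4 (-0.53 to -0.39, adjusted p from 0.0547 to 0.111).

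MRPS9, a small-subunit protein with a bacterial counterpart, has its probe in column 1. Its scaled signals were -1.61, -1.30, -1.29 and -1.30 in NP15, -2.06, -1.89, -1.13 and -1.55 in P15, and -2.04, -2.08, -2.16 and -2.10 in P18. P18 lay below NP15 on all arrays, and P15 overlapped both. It fell 1.65-fold against NP15 (-0.72, SE 0.18, limma adjusted p = 0.0114) and was at -0.44 against P15 (adjusted p = 0.0928), or -0.57 (adjusted p = 0.0341) without P15 replicate 1. In column 1 the median change of 145 probes was -0.15 in P18 vs NP15, also below 0, beside -0.06 in the other columns. In P18 vs P15 these medians were -0.07 and -0.03.

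A further 3 members fell against NP15 alone in the tests, although that difference between the comparisons was not itself tested. MRPL15 was at -0.42 (SE 0.14, limma adjusted p = 0.0484) against NP15 and -0.29 (adjusted p = 0.152) against P15. Its first call was lost without any 1 of 10 arrays, all but P15 replicates 2 and 4 (-0.45 to -0.37, adjusted p from 0.0604 to 0.106), and the second value passed without P15 replicate 4 (-0.41, adjusted p = 0.0455). MRPL38, a mitochondria-specific protein, was at -0.35 (SE 0.11, limma adjusted p = 0.0355) against NP15 and -0.10 (adjusted p = 0.541) against P15, and its call was lost without NP15 replicate 2 or any P18 array (-0.36 to -0.33, adjusted p from 0.0567 to 0.0844). With quantile normalization MRPL38 also fell against P15 (-0.31, limma adjusted p = 0.0379). MRPS23, also mitochondria-specific, was at -0.30 (SE 0.10, limma adjusted p = 0.0346) and -0.09 (adjusted p = 0.508), and its call was lost without NP15 replicate 1, 2 or 4, P15 replicate 2, or P18 replicate 1, 3 or 4 (-0.32 to -0.26, adjusted p from 0.0510 to 0.0907). For each of these 3 genes all P18 arrays were below all NP15 arrays.

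Several of these calls hung on the scaling. With median centring the falls against NP15 of MRPL15 (-0.24, limma adjusted p = 0.224), MRPL38 (-0.18, adjusted p = 0.31) and MRPS23 (-0.13, adjusted p = 0.38) did not pass. With quantile normalization the changes against NP15 of MRPL15 (-0.24, limma adjusted p = 0.227), MRPS14 (0.21, adjusted p = 0.079) and MRPS17 (0.42, adjusted p = 0.0646) did not pass. The fall of MRPL32 against P15 was lost under both, at -0.32 (limma adjusted p = 0.177) and -0.31 (adjusted p = 0.206). The calls that held under every alternative that retained the gene were those of MRPS28, MRPL47, MRPL13 and MRPL9 in P18 vs NP15, 4 of 12. In P18 vs P15 they were those of MRPL47, MRPL13, MRPL48, MRPS17, MRPS25 and MRPL9, 6 of 12.

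Among the members that passed no test in any comparison, MRPL1 was at -0.44 (limma adjusted p = 0.058) and MRPL49 at -0.55 (adjusted p = 0.052) in P18 vs NP15. These values, named after they were seen, are larger than those of several members that passed, and their SEs of 0.16 and 0.19 are wider. MRPL49 was at -2.15 on P18 replicate 1 and at -1.24, -1.29 and -1.29 on the other P18 arrays, while NP15 ran from -1.09 to -0.73. It lies in outer row 190, where neighbouring genes had a median of -0.25 in that comparison. The smallest values belonged to genes such as MRPL43, which was at -0.04, -0.01 and 0.02 in P15 vs NP15, P18 vs NP15 and P18 vs P15. For the dim MRPL2, MRPS33 and MRPS7 the P18 level is only a bound on most arrays, so no fold is given.

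For MRPL18, a large-subunit protein, the P18 arrays fell into separate levels, and the gene is described here because of values already seen. Its scaled signals were 2.69, 2.79, 2.51 and 3.01 in NP15 and 2.25, 2.43, 2.31 and 2.34 in P15. In P18 they were -2.36, 3.01, -3.99 and 3.06. Replicates 1 and 3 of P18 were thus over 4 log2 units below every other array, and replicates 2 and 4 were at the upper end of the NP15 range or above it. The fitted change was -2.82 against NP15 (SE 1.34, limma adjusted p = 0.141) and -2.40 against P15 (adjusted p = 0.211). It passed against NP15 without P18 replicate 2 (-3.85, adjusted p = 0.0471) or replicate 4 (-3.86, adjusted p = 0.0457). Without P18 replicates 1 and 3 the change against NP15 was 0.29 (adjusted p = 0.229), and that against P15 was 0.70 (adjusted p = 0.0145), in the opposite direction.

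The spot of MRPL18 lies at row 185, column 1, and carried no outlier mark on any array. The mean of P18 replicates 1 and 3 minus that of replicates 2 and 4 was -6.21 for MRPL18. For 25 other probes within 6 rows of it in columns 1 to 3 the median of the same difference was -2.89, and 18 of them (72%) were below -2. Over the 12579 probes elsewhere the median was 0.03, and 40 (0.318%) were below -2. Between the same replicate numbers of P15 the nearby probes had a median of 0.13, and 0 were below -2. No other member lies among these spots.

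NP15 replicate 4 was low for a few members. Of the 45, 4 lay there over 1 log2 unit below the mean of NP15 replicates 1 to 3 (MRPL17, MRPS7, MRPL35 and MRPL20), 8.89%, beside 14.4% of tested probes that lay over 1 unit away in either direction. MRPL20 had scaled signals of 2.40, 2.45, 2.45 and 0.14 in NP15. Its values were 2.42, 2.35, 2.36 and 2.29 in P15, and 2.53, 2.57, 2.63 and 2.58 in P18. All P18 arrays were above the others, and NP15 replicate 4 was over 2 log2 units below every other array. The change was 0.72 against NP15 (limma adjusted p = 0.237) and 0.22 against P15 (adjusted p = 0.744). Without NP15 replicate 4 the latter was the same in size and passed (adjusted p = 0.0341).

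MRPL35, with a pair of tested probes, was low on the same array by both. The brighter probe, ABR9768, read 0.86, 0.92, 0.89 and -0.64 in NP15, 0.82, 0.79, 0.75 and 0.43 in P15, and 1.1, 0.95, 1.07 and 1.1 in P18. The dimmer probe, A_73_103267, read -4.63, -5.37, -5.38 and -6.98 in NP15, -5.01, -5.41, -5.29 and -5.72 in P15, and -5.02, -5.42, -5.08 and -5.02 in P18. The longest run of letters that both probes share is 5 bases, so they read different stretches. On ABR9768 the change was 0.55 against NP15 (limma adjusted p = 0.196) and 0.36 against P15 (adjusted p = 0.411), and the latter passed without NP15 replicate 4 (adjusted p = 0.0191). The dimmer probe was at 0.46 and 0.22 in these comparisons.

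The MRPL17 probe A_73_120661, with the gene number of LOC506989, read 2.02, 2.34, 1.64 and 0.16 in NP15, 1.59, 1.92, 1.82 and 2.10 in P15, and 2.17, 2.26, 1.51 and 2.36 in P18. The probe that only the description ties to MRPL17, ABR6442, read 1.32, 1.2, 0.94 and 1.12 in NP15, 0.96, 1.30, 1.04 and 1.35 in P15, and 1.1, 1.19, 0.54 and 1.17 in P18. On NP15 replicate 4 the first was far below its other arrays and the second was not, and both were lowest in P18 on replicate 3. In P18 vs NP15 they gave 0.53 and -0.14, so the probes disagreed in sign, and neither passed.

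**Figure D4:**
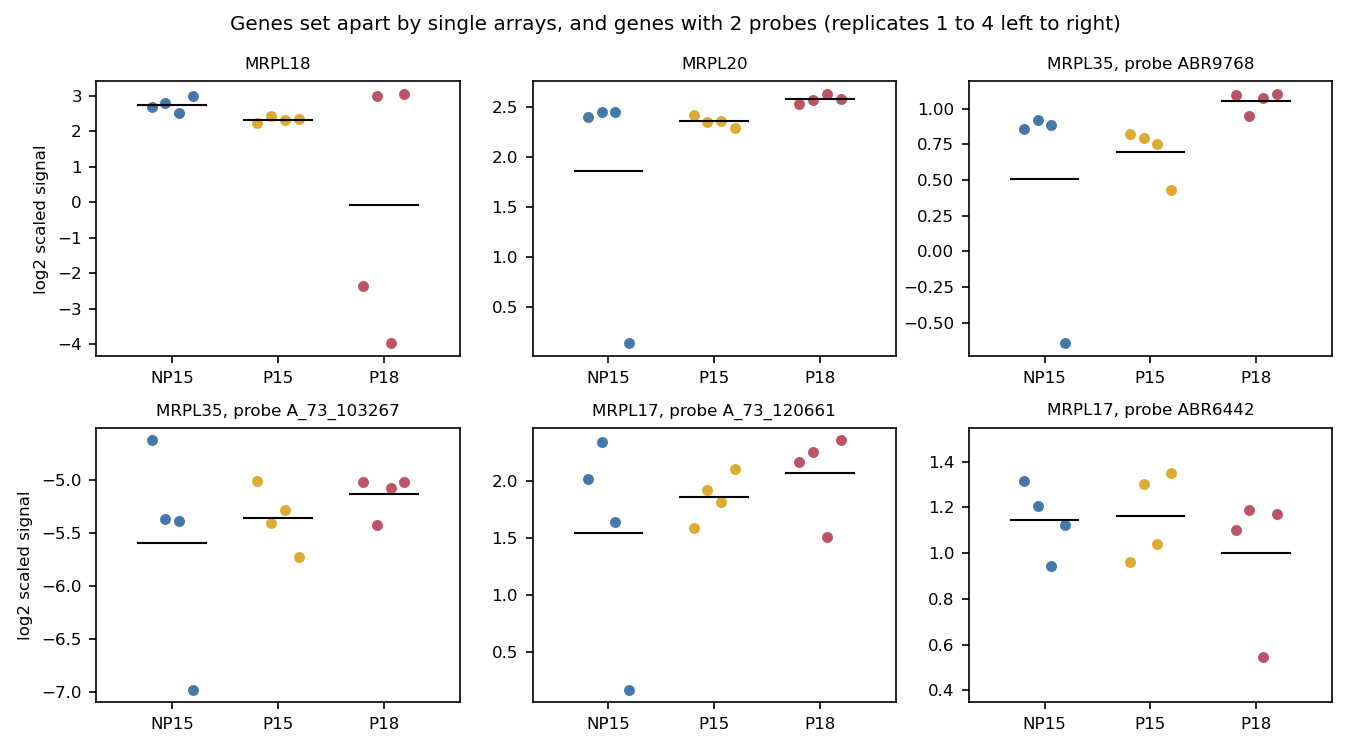
Scaled signal (y axis, log2, each panel with its own range) on each array of NP15, P15 and P18 (x axis) for MRPL18, MRPL20 and both probes each of MRPL35 and MRPL17. MRPL18 sits at -2.36 and -3.99 on P18 replicates 1 and 3 and near 3 on replicates 2 and 4, and NP15 replicate 4 is low for MRPL20, for both MRPL35 probes and for 1 of the MRPL17 probes.

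A further 19 probes are described as mitochondrial ribosomal proteins without carrying a symbol, and 18 of them were tested beside the members. By the letter in the description alone, 10 are L and 9 are S proteins, and the subunit of each was not checked. In P15 vs NP15 none passed and 17 were below 0 by value, with a median of -0.20. In P18 vs P15, 7 of 18 rose (38.9%) and 0 fell, with a median of 0.22, beside 12.8% and 15.5% of all genes. The rises included probes described as MRPS18C (0.90), MRPL53 (0.64) and MRPL50 (0.54). In P18 vs NP15, 4 rose and 3 fell (22.2% and 16.7%, beside 10.4% and 18.6% of all genes), with a median of 0.02. The falls were of probes described as MRPL14 (-0.59), MRPS6 (-0.56) and MRPS11. The MRPS11 probe cleared the background on none of the P18 arrays, so it gets no fold. With these probes added, 17 rose and 2 fell of 63 in P18 vs P15, and 10 rose and 9 fell in P18 vs NP15. The share called was 30.2% in each, near the 28.3% and 28.9% of all genes.

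Cytosolic ribosomal proteins, which build the ribosome outside mitochondria, had 6 rises and 6 falls among 66 genes in P18 vs P15 (median 0.01) and 6 and 8 in P18 vs NP15 (median -0.04). The list of respiratory chain subunits, with those of ATP synthase, held nuclear genes only, whose proteins the mitochondrial ribosome does not make. It had 33 rises and 1 fall among 74 genes in P18 vs P15 (median 0.29) and 25 and 1 in P18 vs NP15 (median 0.20). In P15 vs NP15 the respiratory chain genes had no call, 57 of 74 below 0 and a median of -0.14. Of all genes tested, 12.8% rose and 15.5% fell in P18 vs P15, and 10.4% and 18.6% in P18 vs NP15. These lists are set beside the members as counts, and no difference between lists was tested.

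Genes that act with the mitochondrial ribosome were counted from lists chosen for their function. None of them passed in P15 vs NP15, where 0.981% of all genes did. The counts of every list below stand beside 10.4% of all genes risen and 18.6% fallen in P18 vs NP15. In P18 vs P15 these shares were 12.8% and 15.5%. Of 8 tested translation factors and mRNA-binding partners 1 rose and 3 fell in P18 vs NP15, and 2 rose and 1 fell in P18 vs P15. SLIRP, which binds mitochondrial mRNAs, rose by 0.43 (limma adjusted p = 0.0388) and 0.51 (adjusted p = 0.0188) in these comparisons. The release factor MTRF1L fell against NP15 (-0.58, limma adjusted p = 0.00949), as did PTCD3, a small-subunit protein outside the MRPS names (-0.46, adjusted p = 0.045). MTRF1, another release factor, also passed but cleared the background on none of the P18 arrays, so it gets no fold. The elongation factor TSFM, named after its value was seen, rose against P15 (0.62, limma adjusted p = 0.00619).

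Of 11 tested genes for ribosome assembly and ribosomal RNA modification, 1 rose and 1 fell in P18 vs NP15, and 3 rose and 1 fell in P18 vs P15. MALSU1, an assembly factor of the large subunit, rose by 0.37 (limma adjusted p = 0.0214) and 0.62 (adjusted p = 0.0015). METTL17, an assembly factor of the small subunit, fell by 0.58 (limma adjusted p = 0.00324) and 0.38 (adjusted p = 0.0297). NGRN was at 0.31 (limma adjusted p = 0.0516) and rose against P15 by 0.39 (adjusted p = 0.0197), and the GTPase GTPBP10 was at -0.35 (adjusted p = 0.0719) in P18 vs NP15.

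Of 4 tested ribosomal subunits without an MRPL or MRPS symbol, 0 rose and 2 fell in P18 vs NP15, and 1 rose and 1 fell in P18 vs P15. DAP3, a GTP-binding protein of the small subunit, fell by 0.59 (limma adjusted p = 0.00655) and 0.45 (adjusted p = 0.0251), and PTCD3, given above, is the other fall. GADD45GIP1 of the large subunit was at 0.29 (limma adjusted p = 0.0672) and rose by 0.38 against P15 (adjusted p = 0.0246), while CHCHD1 was at -0.10 (adjusted p = 0.644) in P18 vs NP15.

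Of 8 tested genes that load mitochondrial tRNAs, aminoacyl-tRNA synthetases and the amidotransferase subunits QRSL1 and GATB, 0 rose and 1 fell in P18 vs NP15, and 1 rose and 1 fell in P18 vs P15. CARS2 fell by 0.66 (limma adjusted p = 0.00251) and 0.61 (adjusted p = 0.00403), and SARS2 was at 0.18 (adjusted p = 0.353) and rose by 0.42 against P15 (adjusted p = 0.035). QRSL1 at -0.23 (limma adjusted p = 0.157) and GARS1 at -0.17 (adjusted p = 0.34) did not pass in P18 vs NP15. Of 4 tested genes for mitochondrial DNA and transcription, 1 rose in each P18 comparison and none fell. It was SSBP1, which coats single-stranded mitochondrial DNA, at 0.70 (limma adjusted p = 0.000993) and 0.91 (adjusted p = 0.000236). TFAM, which packages mitochondrial DNA, was at -0.13 (limma adjusted p = 0.587) in P18 vs NP15, POLG2 at 0.09 (adjusted p = 0.746) and GABPA at 0.26 (adjusted p = 0.639).

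The samples were whole tissue, so fewer cells of a type and less RNA per cell cannot be told apart. In P18 vs P15 the tested endothelial markers had 0 rises and 3 falls of 9 (median -0.43), and those of fibroblasts, pericytes and smooth muscle 0 and 4 of 7 (median -0.78). The luteal markers had 2 rises and 1 fall of 11, and the macrophage markers 1 and 0 of 6 (median 0.53). In P18 vs NP15 the luteal markers had 1 rise and 3 falls (median -0.30), endothelial markers 0 and 3 (median -0.31), those of fibroblasts, pericytes and smooth muscle 0 and 4 (median -0.90), and macrophage markers none of 6 (median 0.45). Of the luteal falls, HSD3B1 (-0.70, row 192) and FDXR (-0.70, row 186) lie in outer rows, whose genes had medians of -0.43 and -0.17. SCARB1 (-1.14) and the gene that rose, PTGFR (1.36), lie in inner rows. Of the other lists, T and NK cell markers had 0 rises and 0 falls of 8 in P18 vs P15 and 1 rise in P18 vs NP15. B and plasma cell markers had 1 rise of 3 in P18 vs P15 and 0 in P18 vs NP15. Red blood cell and platelet markers had 1 rise of 3 in each, with medians of 0.54 and 0.49, and HBB was not tested. Granulosa and follicle markers had 0 rises and 0 falls of 5 in each, with medians of -0.49 in P18 vs P15 and -0.21 in P18 vs NP15. Trophoblast markers had 6 genes on the array, of which 1, CDX2, was tested and did not pass. In P15 vs NP15 the single marker gene that passed in any list was HSD3B1, a steroid synthesis enzyme in row 192, at -1.47 (limma adjusted p = 0.000873). The genes of that edge row had a median of -0.72 there, and 36.2% of its probes were over 1 log2 unit lower in P15. Over all genes, 12.8% rose and 15.5% fell in P18 vs P15, 10.4% and 18.6% in P18 vs NP15, and 0.981% passed in P15 vs NP15. The part of these markers in the changes of the mitochondrial ribosomal proteins was not tested.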

How the data were processed

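Each array's file gives linear spot intensities and flags for background and outliers, deposited as Agilent Feature Extraction wrote them (9.5 per the submitters' processing notes, 9.5.1.1 per the file headers). Its processed signal has the background taken off, per the file headers. The authors' table of log2 values is log2 of that signal minus a constant for each array, with column medians from -3.32 to -2.99. The steps after that table are not given in the sources used here. Here log2 of the deposited processed signal was scaled to the 75th percentile of each array's non-control probes. Spots marked as outliers were set missing. Probes well above background on at least 3 of 4 arrays of a group were kept (12605), and the brightest stood for a gene (12334). Symbols came from the files, with a bovine RefSeq table (ARS-UCD2.0) used for names only.

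The tests used limma 3.58.1 (R 4.3.3): lmFit and then eBayes, with a mean for each group and all 12 arrays in one model (2-sided, Benjamini-Hochberg over all genes tested, threshold 0.05). Each array is of another animal, per the labels, and 4 arrays a group limit the precision. The fit was tested on simulated data. Members, lists and named genes were chosen with earlier results of these data known. Named members were those called in P15 vs NP15, up to 6 called rises and 6 called falls without overlap in each P18 comparison, members with several probes, and the 3 of lowest p on each side in inner rows of P15 vs NP15. From each related list up to 4 genes of lowest p in P18 vs NP15 were named.

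Results were recomputed with median centring, quantile normalization, normexp with an offset of 50, the deposited table, no filter or a filter on all 12 arrays, the mean of a gene's probes, a position adjustment by rows, inner rows alone, the 8 arrays compared, array weights, slide as a block, the replicate number as a block, marked spots kept, and each array left out. Adding the described probes, and leaving out P18 replicates 1 and 3, were chosen after seeing the data. Slide as a block changed nothing for P15 vs NP15, since 1 slide holds both groups. P18 lies alone on its slide, so in the P18 comparisons this block cannot be told apart from the group. It gives no separate result there and is not among the alternatives under which P18 calls are said to hold.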

Additional observations from a re-analysis of the deposited data

Results flagged for a closer look

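Within the groups of 4 arrays, 7 of 60 groups of named members had 1 array whose gap to the nearest of the others took up most of the group's range by Dixon's test. Chance alone gives about 1 such group in 20. NP15 replicate 4 stood out in 3 of them. It was low for MRPL20, at 0.14 with the nearest NP15 array at 2.40, and for MRPL35, at -0.64 with the nearest at 0.86. It was high for MRPS23, at 1.08 with the nearest at 0.92. On NP15 replicate 1 MRPS9 was at -1.61, with the nearest array at -1.30. In P18, MRPL47 was at 0.18 on replicate 1, with the nearest at 0.45, and MRPL13 was at 2.38 on replicate 3, with the nearest at 2.2. On P15 replicate 3 MRPS14 was at 1.26, with the nearest at 1.22, in a group whose whole range was small. MRPL18, whose P18 arrays fell into a pair of levels, is not of this kind, since no single array lies apart there.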

How the results depend on the processing

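In P15 vs NP15 the count of 1 member called was 2 with the filter on all 12 arrays and with array weights (MRPL36 is the gene added), and 0 with inner rows alone. In P18 vs NP15 the count of 12 was 7 with the 8 arrays compared, 19 with the described probes added and 5 without P18 replicates 1 and 3. In P18 vs P15 the count of 12 was 19 with the described probes and 7 without P18 replicates 1 and 3. With 1 array left out the counts were 1 throughout, 7 to 14 and 9 to 15 in these comparisons, and the 7 came without P18 replicate 1 and without P18 replicate 3. The median change in P18 vs NP15 moved to 0.23 with median centring, and that in P18 vs P15 to 0.075 with quantile normalization and 0.34 with median centring. With quantile normalization the median in P18 vs NP15 turned from 0.06 to -0.06. The change of MRPL18 in P18 vs P15 turned to 0.70 without P18 replicates 1 and 3. With the replicate number as a block, 1, 8 and 12 members passed. The counts of all genes called with arrays left out, with the 8 arrays compared or with this block are not given here. Whether the members lost more calls than other genes in those runs therefore cannot be read from these counts. Same-numbered arrays deviated together with correlations of 0.0974 to 0.293 for P15 and NP15, -0.04 to 0.17 for P18 and NP15 and -0.03 to 0.15 for P18 and P15, so the numbers were not taken as pairs. Dim probes near background limit MRPL2, MRPS33, MRPS7, MRPL16 and MRPS12.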
